A study of Mus musculus with 4 samples.

Results

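The core islet transcription factors described here are 9 genes, Pdx1, Mafa, Nkx6-1, Nkx2-2, Neurod1, Isl1, Pax6, Rfx6 and Foxa2, taken by name from the deposited gene tables. All 9 were found among the 23235 gene symbols, each as a single row with a valid value in every library, and all 9 were among the 11953 genes tested. The study sequenced RNA of pancreatic islets, the hormone-secreting cell clusters of the pancreas, isolated from C57BL/6 mice. It compared wild type (WT) with KR mutant mice, in the fasted state and after refeeding, with 1 library for each of the 4 combinations. KR is known from the study as an altered FoxO1, a transcription factor that insulin signalling restrains, with arginine in place of the lysines that are acetylated. The labels do not describe the allele or the cells that carry it. Both genotypes share the strain and the fast, whose length is 48 h by the sample titles but 24 h by the extraction protocol. The refed mice were then fed for 6 h. No age is given in the sources used here. Each library holds the islets of 3 mice pooled per genotype, so no group is replicated, and a pairwise difference cannot be set against variation between mice.

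These genes encode DNA-binding proteins that specify endocrine cells in the developing pancreas and keep their hormone genes active in the adult. Pdx1, Nkx6-1 and Mafa mark beta cells among adult mouse islet cells, with Pdx1 also present in delta cells. Nkx2-2, Neurod1, Isl1, Pax6, Rfx6 and Foxa2 act in several or all of the endocrine cell types. FoxO1 and the forkhead factor Foxa2 recognise related DNA sequences, and Pdx1 is known to be regulated by both in beta cells.

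The promoters of the 3 factors that rose most with refeeding, of the 1 factor that fell and of Pdx1, the factor most often linked to FoxO1, are shown because these genes moved in different directions in the same libraries. They are RefSeq sequences of build GRCm38.p6, each 300 bases long, from 250 bases before to 50 bases after an annotated start, in the direction of transcription. Capitals mark matches on either strand to the E-box CACGTG, to the cyclic AMP response element (CRE), spelled TGACGTCA, and to the shorter form TGACGTC. They also mark the CCAAT box, the TATA box with letters TATAAA and the homeodomain core with letters TAATTA. Isl1 lies at chr13:116309639-116309938 on the minus strand, Pax6 (the more upstream of its 2 listed starts) at chr2:105668646-105668945 on the plus strand and Rfx6 at chr10:51685268-51685567 on the plus strand. Nkx2-2 lies at chr2:147186353-147186652 on the minus strand and Pdx1 at chr5:147269847-147270146 on the plus strand.
Isl1: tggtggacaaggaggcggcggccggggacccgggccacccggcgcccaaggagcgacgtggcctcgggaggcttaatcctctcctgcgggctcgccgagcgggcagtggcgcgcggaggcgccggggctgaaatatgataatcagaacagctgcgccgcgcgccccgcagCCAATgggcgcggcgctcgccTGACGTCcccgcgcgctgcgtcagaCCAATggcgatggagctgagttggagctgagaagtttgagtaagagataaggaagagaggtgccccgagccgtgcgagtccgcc
Pax6: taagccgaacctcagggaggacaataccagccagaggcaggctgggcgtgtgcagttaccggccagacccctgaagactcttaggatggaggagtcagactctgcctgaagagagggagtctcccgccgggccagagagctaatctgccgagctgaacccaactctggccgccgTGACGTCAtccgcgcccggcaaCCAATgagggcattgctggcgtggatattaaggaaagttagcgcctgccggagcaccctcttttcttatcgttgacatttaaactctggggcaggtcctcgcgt
Rfx6: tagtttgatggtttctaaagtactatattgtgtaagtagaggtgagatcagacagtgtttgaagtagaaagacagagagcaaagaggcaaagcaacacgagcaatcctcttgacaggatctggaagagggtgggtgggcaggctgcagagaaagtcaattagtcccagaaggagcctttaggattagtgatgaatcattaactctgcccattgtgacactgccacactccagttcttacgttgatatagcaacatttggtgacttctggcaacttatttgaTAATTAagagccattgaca
Nkx2-2: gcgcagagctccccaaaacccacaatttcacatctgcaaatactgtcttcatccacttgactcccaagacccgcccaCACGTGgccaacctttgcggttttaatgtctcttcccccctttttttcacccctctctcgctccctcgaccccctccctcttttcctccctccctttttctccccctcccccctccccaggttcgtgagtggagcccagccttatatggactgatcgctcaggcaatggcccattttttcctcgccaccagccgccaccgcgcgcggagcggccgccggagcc
Pdx1: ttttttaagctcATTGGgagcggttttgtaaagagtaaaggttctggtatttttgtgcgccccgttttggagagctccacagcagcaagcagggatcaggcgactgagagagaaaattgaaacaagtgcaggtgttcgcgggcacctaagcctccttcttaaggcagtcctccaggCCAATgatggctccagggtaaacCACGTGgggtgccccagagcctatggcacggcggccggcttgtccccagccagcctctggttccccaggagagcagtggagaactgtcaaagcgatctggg

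RefSeq listed 11 promoters for 8 of the 9 factors. The E-box CACGTG stood in the promoters of Pdx1 and Nkx2-2, and 7.15% of all 32851 promoters of this length hold it. The full CRE stood in the upstream Pax6 promoter, against 1.79% of all promoters, and TGACGTC, which lies inside the full CRE, also stood in that of Isl1, against 3.21%. The CCAAT box stood in 4 of the 11, against 37.4% of all. The TATA box stood in 1, a Foxa2 promoter, against 13.6%, and the homeodomain core in that of Rfx6, against 5.29%. The letters GTAAACA, a FoxO and forkhead core, were in 0 of the 11 windows and in 3.65% of all promoters. Pdx1, which rose with refeeding, and Nkx2-2, which fell, both hold the E-box, and a link between motifs and direction was not tested. Pax6 and Isl1, which rose, shared the shorter CRE form and the CCAAT box, and Rfx6, which also rose, shared no motif searched with either. The GC content of these promoters ran from 42.3% in Rfx6 to 69.0% in Isl1, where the median of all promoters was 52.7%.

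Levels are given as FPKM, fragments counted per length of transcript and relative to the library total, with the deposited lower and upper bound of each estimate. These bounds cover the estimate within 1 library and not the variation between mice. The estimates rest on 350 to 10380 fragments per factor and library, as implied by the bounds. The refed libraries were shallower, at 0.683 (WT) and 0.418 (KR) of the fasted WT depth, and fasted KR stood at 1.01. The 9 factors ranked between percentile 84.9 and 98.6 of all genes in their library.

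**Figure D1:**
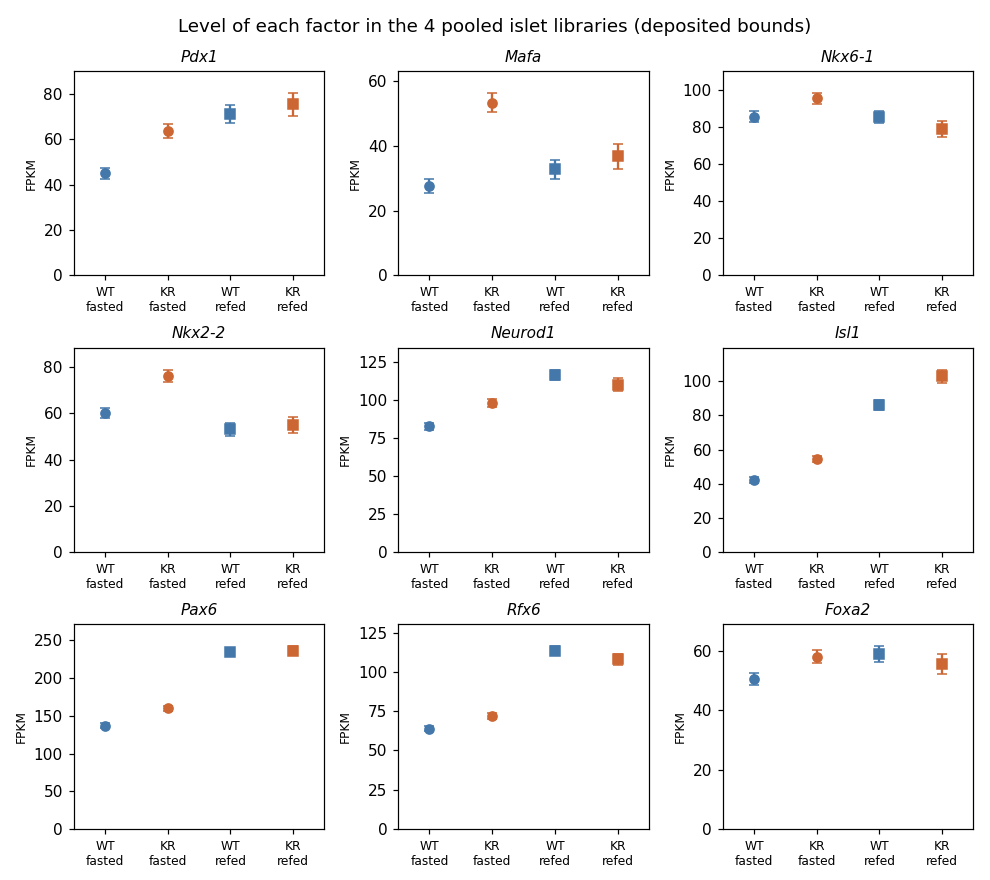
FPKM of each factor (y axis, from 0) in the 4 pooled libraries (x axis), circles for fasted and squares for refed, blue for WT and orange for KR, with bars for the deposited bounds. In each panel the fasted KR point lies above the fasted WT point, from 27.7 to 53.5 for Mafa and from 85.8 to 95.6 for Nkx6-1.

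Among the beta-cell factors, Pdx1, a homeodomain activator of the insulin gene, at chr5:148081706-148086725 (mm9, as deposited), had WT levels of 44.9 FPKM fasted (bounds 42.4 to 47.5) and 71.0 refed (67.2 to 74.9), and KR levels of 63.7 (60.7 to 66.7) and 75.4 (70.4 to 80.5). Fasted WT was the low library, and the bounds of the 2 refed libraries overlapped. Mafa, a basic leucine zipper activator of insulin in mature beta cells, at chr15:75577272-75578352, had WT levels of 27.7 FPKM fasted (25.5 to 29.9) and 32.8 refed (29.9 to 35.7), and KR levels of 53.5 (50.4 to 56.5) and 36.8 (32.9 to 40.7). Fasted KR alone stood high for Mafa, with bounds clear of those of the other 3 libraries. Nkx6-1, a homeodomain repressor that separates beta from alpha identity, at chr5:102088215-102093730, had WT levels of 85.8 FPKM fasted (82.9 to 88.6) and 85.5 refed (82.0 to 89.0), and KR levels of 95.6 (92.6 to 98.6) and 79.0 (74.7 to 83.3). Its highest and lowest libraries were the 2 KR libraries, 1.21-fold apart.

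Of the factors shared by endocrine cells, Nkx2-2, a homeodomain factor of early endocrine commitment, at chr2:147003281-147012138, had WT levels of 60.2 FPKM fasted (57.8 to 62.5) and 53.1 refed (50.4 to 55.8), and KR levels of 76.4 (73.8 to 79.0) and 55.0 (51.5 to 58.4). As for Mafa, fasted KR was the high library, but here fasted WT also lay above both refed libraries, though its lower bound lay within the bounds of refed KR. Neurod1, a basic helix-loop-helix activator of insulin, at chr2:79292797-79296793, had WT levels of 83.0 FPKM fasted (80.7 to 85.4) and 117 refed (114 to 120), and KR levels of 98.2 (95.6 to 100.7) and 110 (106 to 115). Both refed libraries lay above both fasted ones. Isl1, a LIM homeodomain factor, at chr13:117088477-117099896, had WT levels of 42.1 FPKM fasted (40.4 to 43.8) and 86.1 refed (83.3 to 89.0), and KR levels of 54.5 (52.6 to 56.4) and 103 (98.7 to 107). It spanned the widest range of the 9, 2.44-fold, and the bounds of its 4 libraries did not overlap.

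Pax6, a paired and homeodomain factor needed for glucagon and insulin expression, at chr2:105509052-105537521, had WT levels of 137 FPKM fasted (134 to 140) and 235 refed (231 to 240), and KR levels of 160 (157 to 163) and 236 (230 to 242). The refed libraries were both high and could not be told apart by their bounds. Rfx6, a winged-helix factor needed to form islet cells, at chr10:51397565-51450235, had WT levels of 63.8 FPKM fasted (62.1 to 65.6) and 113 refed (111 to 116), and KR levels of 72.1 (70.2 to 73.9) and 108 (105 to 112). Its order of libraries was that of Neurod1. Foxa2, a forkhead factor that opens chromatin at pancreatic genes, at chr2:147868613-147872705, had WT levels of 50.6 FPKM fasted (48.6 to 52.6) and 58.9 refed (56.3 to 61.5), and KR levels of 58.0 (55.9 to 60.1) and 55.5 (52.3 to 58.8). It varied least, 1.16-fold, and only fasted WT lay outside the bounds of another library, being below fasted KR and refed WT.

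Pax6 was the highest and Mafa the lowest of the 9 factors in each of the 4 libraries. Between them the order changed with feeding. Isl1 stood in place 8 in both fasted libraries and in place 4 in both refed ones, whereas Nkx2-2 went from place 5 in fasted WT and place 4 in fasted KR to place 8 in both refed libraries. Several neighbours in this order did not differ beyond their bounds, among them Nkx6-1 and Neurod1 in both fasted libraries, Neurod1 and Rfx6 in both refed libraries, and Isl1 and Mafa in fasted KR. Fasted WT was the lowest of the 4 for 7 of the 9, the exceptions being Nkx6-1 and Nkx2-2. Summed over the 9, the level went from 595 to 853 FPKM with refeeding in WT and from 732 to 859 in KR.

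KR islets were set against WT islets to ask how these factors depend on the state of FoxO1. In the fasted pair all 9 factors were higher in KR. Their differences in log2(FPKM + 1), the scale used for differences from here on, ran from 0.16 for Nkx6-1 to 0.93 for Mafa, with a median of 0.24, where the median of all tested genes was -0.03. The deposited bounds of the 2 libraries were apart in all 9, which held for 7.47% of tested genes in this direction and for 22.9% in either, and 40.2% of tested genes were higher in KR by any amount. In FPKM, Mafa stood 1.93-fold higher, Pdx1 1.42-fold, Isl1 1.30-fold and Nkx2-2 1.27-fold, and the other 5 were 11.5% to 18.2% higher. None reached 2-fold on the log2(FPKM + 1) scale, as 0.243% of tested genes did.

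In the refed pair the same comparison gave little. Of the 9 factors 5 were higher and 4 lower in KR, with a median difference of 0.0066, where that of all tested genes was -0.05. Isl1, at 0.25, was the single factor whose bounds were apart, against 3.51% of tested genes apart in this direction, 11.8% in the other and 15.3% in either. Of tested genes 36.0% were higher in KR by any amount. Pdx1, at 0.09, Mafa, at 0.16, Nkx2-2, at 0.05, and Pax6 were the others higher in KR, and Nkx6-1, at -0.11, was the lowest. None was 2-fold apart, as 0.368% of tested genes were.

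**Figure D2:**
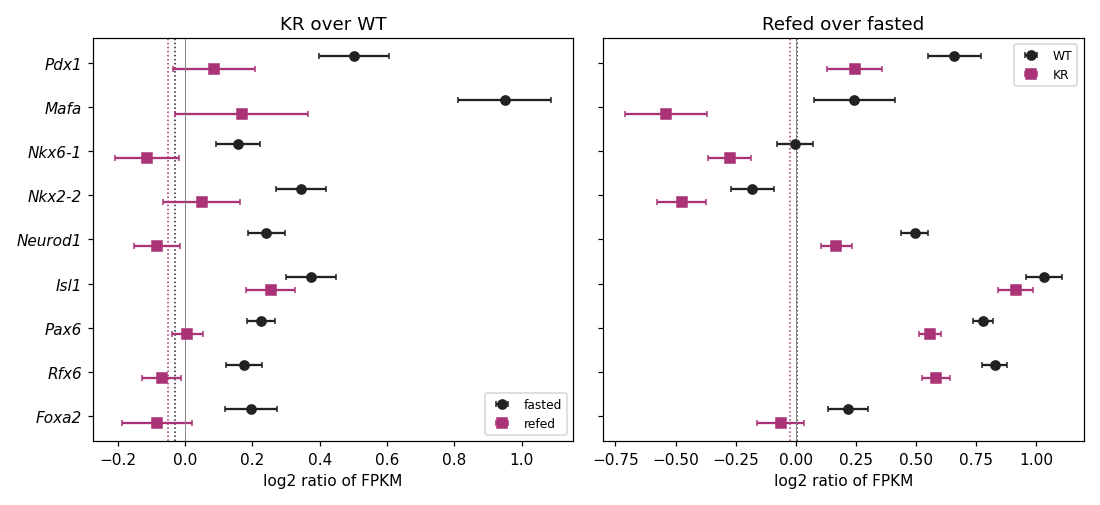
Log2 ratio of FPKM (x axis) of each factor (y axis), KR over WT at left and refed over fasted at right, with bars for 95% counting intervals and dotted lines for the median of all tested genes. At left the fasted points all lie above 0 and the refed points lie on both sides of it, and at right the KR point lies below the WT point for every factor.

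The genotype difference shared by both feeding states was tested with limma over all 11953 genes, in an additive fit that leaves 1 residual degree of freedom and counts any unequal response as error. None of the 9 factors passed, beside 1.26% of all tested genes, 0.602% higher and 0.661% lower, and 4 had an unadjusted p under 0.05, as 16.4% of tested genes did. Isl1 was nearest, at 0.31 ± 0.06 (SE over 4 libraries, adjusted p = 0.0543), and it passed in 5 of 7 other settings, over which its adjusted p ran from 2.23e-06 to 0.575. Mafa differed by 0.54 ± 0.14 (limma adjusted p = 0.123), Pdx1 by 0.29 ± 0.09 (adjusted p = 0.177) and Nkx2-2 by 0.19 ± 0.08 (adjusted p = 0.258). For these 3 the adjusted p passed in 1 of those 7, limma-voom on the implied fragments. That fit called 4 factors, beside 748 of all 11953 tested genes in either direction. With libraries centred by base composition, a fit chosen after seeing the data, Pdx1, Mafa and Isl1 passed (adjusted p = 0.0343, 0.0188 and 0.006). The centred fit called 311 of its 10445 genes in either direction. Each adjusted p is from limma over all tested genes.

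Other islet genes moved in the fasted pair as well. All 5 alpha-cell markers had a value, and summed to 21941 FPKM in WT and 26890 in KR when fasted, against 27010 and 25759 when refed. The 3 delta markers summed to 2824 and 3414 in the fasted and 3214 and 3437 in the refed pair. Both lists were higher in KR when fasted. Of the 6 beta markers 5 had a value in all libraries, and summed to 40322 and 54899 in the fasted and 57252 and 80478 in the refed pair. Ins2 lacked a value in fasted KR and is not in these sums, most of which is Iapp (35463 in fasted WT). The 6 endothelial markers summed to 29.3 and 19.4 in the fasted and 13.5 and 14.0 in the refed pair. Acinar markers, a sign of exocrine tissue, were near absent, summing to at most 4.39, and 5 of these 7 were at 0 in at least 1 library. The 5 duct markers summed to 500 and 475 in the fasted and 592 and 533 in the refed pair, mostly Krt7 (413 to 521). Spp1 stood at 60.3 to 68.1, and Krt19 (at most 2.65), Sox9 (at most 0.194) and Muc1 (at most 0.632) were near absent. The duct sums thus describe Krt7 and Spp1. Stellate and fibroblast markers summed to 34.6 and 36.5 in the fasted and 22.2 and 28.8 in the refed pair. In the fasted pair Acta2 (4.41 in WT and 5.49 in KR) and Dcn (2.65 and 5.18) were higher in KR. The others of this list, Col1a1, Col1a2, Col3a1 and Pdgfrb, were lower. Neural and glial markers summed to 6.54 and 5.06 in the fasted and 4.11 and 4.05 in the refed pair. The macrophage markers, 6 genes, summed to 264 and 269 in the fasted and 210 and 201 in the refed pair, with Lyz2 the most abundant. Within this list the antigen-presentation genes Cd74, at 36.2 and 54.2, and H2-Aa, at 13.0 and 24.1, were higher in fasted KR, whereas Lyz2, at 170 and 149, and Cd68, at 35.7 and 31.3, were lower. The 2 PP-cell markers summed to 14927 and 13856 in the fasted and 20831 and 20941 in the refed pair. The sums of alpha, beta, delta, macrophage and stellate markers, and Cd74 and H2-Aa, were thus higher in fasted KR than in fasted WT, as the 9 factors were. Those of PP, duct, endothelial and neural markers were lower. Within the macrophage and stellate lists genes went both ways. The part of these cell types in the result was not tested. Beta markers, Cd74 (19.0 in WT and 27.1 in KR) and H2-Aa (13.4 and 22.5) were also higher in refed KR, where 8 of the 9 factors had overlapping bounds. After refeeding, the beta, delta, PP and duct sums were higher in both genotypes. The endothelial, macrophage, stellate and neural sums were lower in both, although Acta2 of the stellate list was higher in both. The delta sum in KR moved only from 3414 to 3437. There Rbp4 was higher (252 to 297), but Sst (3151 to 3131) and Hhex (10.3 to 8.56) were lower. For WT, Sst and Rbp4 were higher and Hhex was lower. The beta rise did not hold for the insulin genes in WT, where Ins1 went from 4320 to 3498 FPKM and Ins2 from 122864 to 121397. In KR Ins1 went from 7966 to 12196. The part of these cell types in the refeeding values was not tested either. In pooled islets fewer cells of a type and less RNA per cell cannot be told apart.

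Refed islets were compared with fasted ones to ask which factors follow feeding. Isl1, Rfx6, Pax6, Pdx1 and Neurod1 rose in the limma test and Nkx2-2 fell. Of all tested genes 56.9% passed this test, 27.7% higher and 29.2% lower, so the count of 6 in 9 lies near that share. Isl1 rose by 0.96 ± 0.06 (SE over 4 libraries, adjusted p = 1.01e-05), Rfx6 by 0.70 ± 0.07 (adjusted p = 7.75e-05), Pax6 by 0.67 ± 0.06 (adjusted p = 6.92e-05), Pdx1 by 0.44 ± 0.09 (adjusted p = 0.00314) and Neurod1 by 0.33 ± 0.08 (adjusted p = 0.00682). Nkx2-2 fell by 0.32 ± 0.08 (limma adjusted p = 0.00681). Mafa, at -0.15 ± 0.14 (adjusted p = 0.412), Nkx6-1, at -0.14 ± 0.07 (adjusted p = 0.134), and Foxa2, at 0.08 ± 0.08 (adjusted p = 0.412), did not pass. The median of the 9 was 0.33 and that of all tested genes -0.01. With no filter on low values limma called 0 of 23046 genes. At an unadjusted p under 0.05 that fit held 6207 of the 23046, of which 3 were among the 9 factors.

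Taken by genotype, 7 factors were higher in refed than in fasted WT islets, against 50.5% of tested genes, and 5 in KR islets, against 47.7%. The bounds were apart upward for 6 and downward for 1 in WT, against 30.2% and 30.9% of tested genes (61.1% either way). In KR they were apart upward for 5 and downward for 3, against 23.1% and 29.0% (52.1% either way). Isl1, at 1.02 in WT, was the single factor past 2-fold in any pair, as 3.51% of tested genes were in WT, and stood at 0.90 in KR, where 2.33% of tested genes were past 2-fold. Rfx6 was at 0.82 and 0.58, Pax6 at 0.77 and 0.56, Pdx1 at 0.65 and 0.24 and Neurod1 at 0.49 and 0.17, in WT and KR. Nkx2-2 was at -0.18 and -0.47 and Nkx6-1 at -0.0043 and -0.27, so the KR value was the lower one for these as well. Scaling the libraries to equal summed FPKM moved the median of all genes by over 0.1, to -0.13 in WT and -0.14 in KR. It left 7 and 5 factors higher after refeeding, with medians of 0.33 and 0.03, and Pax6, Rfx6 and Isl1 at 0.42 or more in each genotype.

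The refeeding difference also went with base composition. Tested genes were put in 5 equal bins by the GC content of their longest GENCODE transcript. From the GC-poorest to the GC-richest bin the median fitted refeeding difference went from 0.14 through 0.04, -0.02 and -0.07 to -0.20. Neurod1 (43.6% GC), Rfx6 (44.8%), Isl1 (45.7%) and Pax6 (49.3%), which rose, lay in the 3 poorer bins. Foxa2 (57.0%), Nkx6-1 (59.0%) and Mafa (65.0%), which did not pass, lay in the richest, and Pdx1 and Nkx2-2, both at 55.7%, in the fourth. With each library centred within these bins, a fit chosen after seeing the data, Isl1 was at 0.91, Pax6 at 0.69, Rfx6 at 0.65, Pdx1 at 0.52 and Neurod1 at 0.19 and passed the limma test, as did Nkx2-2 at -0.24. Foxa2 then passed too, at 0.28 (limma adjusted p = 0.00191), and Mafa and Nkx6-1 turned to 0.06 and 0.07 without passing. The part of base composition in the refeeding result was not otherwise tested. In the fasted genotype pair the medians of the 5 bins all lay between -0.02 and -0.04.

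**Figure D3:**
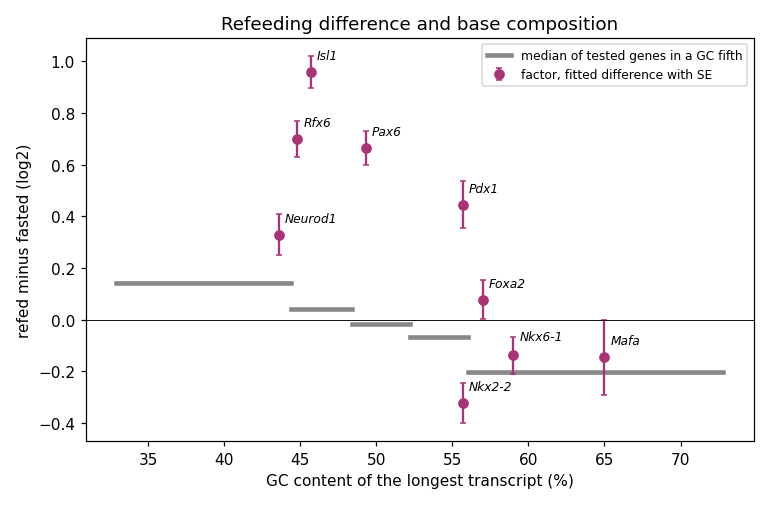
Fitted refed minus fasted difference on the log2(FPKM + 1) scale (y axis) of each factor against the GC content of its longest transcript (x axis), with bars for the SE over 4 libraries and grey lines for the median of tested genes in each of 5 GC bins. Pdx1 and Nkx2-2 have the same GC content and lie at 0.44 and -0.32.

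For all 9 factors the refeeding difference was lower in KR than in WT. The difference between the 2, KR minus WT, ran from -0.11 for Isl1 to -0.76 for Mafa, with a median of -0.28, where that of all tested genes was -0.02 and their quartiles were -0.13 and 0.09. Of all tested genes 56.1% lay below 0. The 95% counting interval lay below 0 for all 9, as for 14.1% of tested genes, and covers counting error only. It is centred on log2 ratios of FPKM itself, whereas the differences and ranks use log2(FPKM + 1). With libraries rescaled by the median of ratios, an interval computed after seeing the data, it lay below 0 for 8 of 9, as for 10.2% of tested genes, and that of Isl1 ran from -0.19 to 0.02. Mafa had an interval of -1.02 to -0.54 and was rank 61 from the bottom of 11953, Pdx1 one of -0.58 to -0.26, and Isl1, the least different, one of -0.22 to -0.01. Mafa and Foxa2 were higher after refeeding in WT and lower in KR, by 0.24 and -0.53 and by 0.21 and -0.06. The deposited bounds of the fasted and refed libraries overlapped for Mafa in WT and for Foxa2 in KR. No residual degree of freedom is left to test an unequal response, so these differences have no test. Each also equals the genotype difference of the refed pair less that of the fasted pair. The 9 values thus restate those genotype pairs and are not a separate result. The fasted genotype pair and the WT refeeding pair share the fasted WT library, in which 7 factors were lowest, so the 2 comparisons are not independent of each other.

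**Figure D4:**
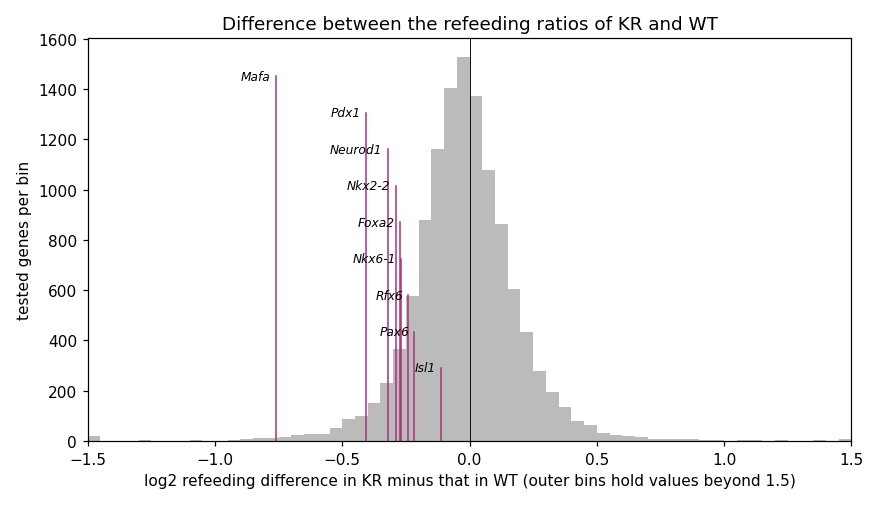
Number of tested genes (y axis) by the log2 refeeding difference in KR minus that in WT (x axis), with vertical lines at the 9 factors, whose heights only place the names. All 9 lie to the left of 0, from Isl1 at -0.11 to Mafa at -0.76.

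Within a library the ratio of 2 factors does not depend on the scaling of the library. The FPKM of Mafa relative to Pdx1 was 0.616 in fasted WT, 0.840 in fasted KR, and after refeeding 0.461 (WT) and 0.488 (KR). Pax6 relative to Isl1 was 3.26, 2.94, 2.73 and 2.30 in the same order. Thus Mafa gained on Pdx1 in fasted KR and lost on it after refeeding in both genotypes.

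Over the 4 libraries the pattern of Pax6 and that of Rfx6 were the most alike of the 36 pairs of factors, at a Euclidean distance of 0.073 between their centred log2(FPKM + 1) values, and Nkx2-2 and Isl1 the least alike, at 1.29. Among the 9202 other tested genes that averaged 5 FPKM or more, the nearest to Isl1 were Ddx31, Nt5c3, Sult1d1, 0610040B10Rik and Nqo1, at distances of 0.066 to 0.125. The nearest to Mafa were Cd52, H2-Eb1, Chrm4, Kcnab3 and O3far1, at 0.237 to 0.311, so no gene followed Mafa as closely as these 5 followed Isl1. Cd52, a leukocyte surface gene, had an FPKM of 6.40 fasted and 6.31 refed in WT, and of 13.6 and 8.75 in KR. It too was highest in fasted KR. Cd74 and H2-Aa were higher in KR than in WT in both feeding states, and H2-Aa stood at 24.1 in fasted and 22.5 in refed KR. Euclidean distance over 4 libraries is a description of these libraries only.

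The genes related to the 9 factors were taken from 4 further lists. Of 24 paralogues 8 were tested, of which 0 rose, 5 fell and 3 did not pass with refeeding, at a median of -0.26. Of all tested genes 27.7% rose and 29.2% fell. Rfx1 fell by 0.74, Lhx1 by 0.39 and Foxa3 by 0.26, while Rfx3, a partner of Rfx6 in the islet, was at 0.16 ± 0.09 (limma adjusted p = 0.165). The 16 untested paralogues had a mean FPKM of at most 0.255, among them Foxa1, Isl2 and Pax4, the last of which was at 0 in each library. The level of Foxa3, a close paralogue of Foxa2, was 12.4 FPKM fasted and 11.7 refed in WT, and 12.0 and 8.50 in KR. None of the 8 passed between genotypes by limma, beside 1.26% of all tested genes.

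Of 36 tested partners and regulators, 4 rose, 19 fell and 13 did not pass with refeeding, against 27.7% of all tested genes higher and 29.2% lower. The median of the 36 was -0.25, and 0 passed between genotypes, beside 1.26% of all tested genes. The LIM-only gene Lmo4, whose protein competes for the Isl1 cofactor Ldb1, fell by 1.38 ± 0.10 (limma adjusted p = 1.89e-05). Its level fell from 8.95 FPKM to 3.24 in WT islets and from 13.1 to 3.85 in KR islets. Ldb1 itself was at -0.11 ± 0.06 (adjusted p = 0.146). Id2, an inhibitor of helix-loop-helix factors such as Neurod1, rose by 0.64, whereas Tcf3, which encodes the E-protein partner of Neurod1, fell by 0.33. Tle3, a corepressor used by Nkx factors, fell by 0.63 and the Notch effector Hes1 by 0.52.

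Of 21 tested other islet lineage factors, 5 rose, 7 fell and 9 did not pass with refeeding, against 27.7% of all tested genes higher and 29.2% lower. The median of the 21 was 0.02, and 0 passed between genotypes, beside 1.26% of all tested genes. Insm1, a zinc-finger factor of endocrine cells, fell by 1.23 ± 0.06 (limma adjusted p = 3.98e-06). Its level fell from 170 FPKM to 75.6 in WT islets and from 168 to 67.6 in KR islets. St18 rose by 0.71 and Mnx1 by 0.29, and Irx1 fell by 0.50. Foxo1, altered in KR, had levels of 17.4 FPKM fasted and 18.8 refed in WT, and of 14.1 and 13.8 in KR, a difference of -0.35 ± 0.07 that did not pass (limma adjusted p = 0.0667). A change of the protein does not by itself alter the transcript level, so these values do not check the labels.

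Of 29 tested effector genes linked to the 9 factors, 9 were higher in KR by limma, 0 were lower and 20 did not pass. Of all tested genes 0.602% were higher and 0.661% lower. The median of the 29 was 0.16, where that of all tested genes was -0.04. This list was drawn up with earlier results on several of its members known. With refeeding 16 of the 29 rose, 6 fell and 7 did not pass, against 27.7% of all tested genes higher and 29.2% lower. Their median was 0.22, and the largest rises were G6pc2 at 1.19, Nnat at 1.09, Sytl4 at 1.05 and Slc2a2 at 1.03. The hormone genes Gcg, at 0.12 ± 0.08 (limma adjusted p = 0.238), and Sst, at 0.08 ± 0.06 (adjusted p = 0.267), did not pass.

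Other annotated genes overlap 3 of the factors. Pdx1 shares 1391 bases of its locus with 2210019I11Rik (FPKM 1.71 to 3.56), Nkx2-2 shares 2320 with Nkx2-2as (at most 0.115) and Pax6 shares 1435 with Pax6os1 (8.80 to 12.0). Reads of the shared bases cannot be told apart without strand, and the sources used here do not say that strand was used. Start positions are printed as deposited, and their counting from 0 or 1 is not stated.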

How the data were processed

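RNA was measured in 4 libraries of pooled mouse islets. Per the labels' protocols, poly-A RNA was selected and libraries were made with an Illumina TruSeq kit. The submitters' processing notes name bcl2fastq 1.8.4, TopHat2 2.0.4 and mouse build mm9. The deposited tables hold FPKM, their bounds and a status per gene, per the file headers, made by the authors with a program and annotation not given in the sources used here.

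Rows of 1 symbol were summed, and values without an OK status were treated as missing, which affected 189 symbols. Fragments behind a value were estimated as (FPKM/SE) squared, with the distance to the upper bound read as 2 SE. The 95% counting intervals come from these fragments, are centred on log2 ratios of FPKM itself, and cover counting error only. Tested genes had a value in every library and averaged 1 FPKM or more. They were compared on log2(FPKM + 1), which understates changes of low genes, with limma 3.58.1 (R 4.3.3), a mean-variance trend and Benjamini-Hochberg adjustment over all 11953 genes, at 0.05. The model held feeding state and genotype. Each variance has 1 residual degree of freedom and a prior worth 7.58, so p-values rest mostly on other genes and on the spread between these libraries only. With limma-voom the prior was infinite, so a gene's own spread did not enter its p-value there. The fit was also run on simulated data with independent noise, no feeding effect and no unequal response. That run does not check the p-values given here.

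The members and gene lists were chosen with earlier results of these data known. Named genes are the 9 factors, up to 4 called genes per list with the largest differences, a fixed panel and the 5 nearest genes to the 2 factors of widest range. A few genes that this rule takes are not reported here. Alternatives were another pseudocount (0.1), no filter or a mean FPKM of at least 5, no trend, a robust prior, rescaling by the median of ratios, limma-voom on implied fragments and, added later, centring within 5 GC bins (87.4% of tested genes had a GC value) and equal summed FPKM.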

Additional observations from a re-analysis of the deposited data

Results flagged for a closer look

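Under 1 contrast the 2 groups moved in opposite directions for 5 factors, each on 1 library per group, and none of these differences between groups was tested. After refeeding Mafa was at 0.24 on the log2 scale in WT and at -0.53 in KR. Foxa2 was at 0.21 in WT and at -0.0613 in KR. The deposited bounds of the fasted and refed libraries overlapped for Mafa in WT and for Foxa2 in KR. Between KR and WT, Nkx6-1 was at 0.16 in the fasted and at -0.11 in the refed pair, Neurod1 at 0.24 and -0.0829, Rfx6 at 0.17 and -0.0688, and Foxa2 at 0.19 and -0.0828. For these 4 the deposited bounds of the refed pair overlapped, and with the median of ratios the refed values were -0.056, -0.026, -0.012 and -0.027.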

How the results depend on the processing

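Over 7 other settings and the GC-centred fit, which was chosen after seeing the data, 65 of 72 refeeding values of the factors stayed on their side of the threshold. The 6 calls were lost with no filter, where Isl1 had an adjusted p of 0.111, Foxa2 was gained with GC centring, and Mafa and Nkx6-1 reversed there to 0.063 and 0.070 (adjusted p = 0.661 and 0.327). Counts of called factors (5 higher, 1 lower) and of all genes (3308 and 3488) fell to 0, 0, 0 and 0 with no filter, where the prior was worth 0.651 degrees of freedom. Between genotypes 61 of 72 stayed and 11 were gained. Called factors numbered 1 higher with the pseudocount of 0.1, the mean FPKM of at least 5, the robust prior and the median of ratios, 4 with limma-voom and 3 with GC centring, against 0. Tested genes numbered 23046 with no filter, 9203 with the mean FPKM of at least 5, 10445 with GC centring and 11953 otherwise. Genes called higher (72) numbered 89 with the pseudocount of 0.1, 96 with the mean FPKM of at least 5, 98 with the robust prior and 86 with the median of ratios. They numbered 0 with no filter, 3 without trend, 331 with limma-voom and 187 with GC centring. Genes called lower (79) numbered 0, 2, 417 and 124 in that order, 156 with the mean FPKM of at least 5, 130 with the robust prior and 51 with the median of ratios, where 62.8% of calls were higher in KR against 47.7%. The cause was not tested. At 1.5-fold, factors apart numbered 1 between KR and WT when fasted, 4 after refeeding in WT and 1 in KR, against 0, 1 and 0 at 2-fold, where 1.11%, 16.1% and 12.9% of tested genes were 1.5-fold apart. The 18 recomputed differences of refeeding ratios kept their direction, and the smallest, that of Isl1, went from -0.11 to -0.08 with the median of ratios. No paired analysis was possible because each group has 1 library and the labels give no replicate numbers. The shallower refed libraries limit precision most for Mafa, with 350 fragments in refed KR.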
